A study of Arabidopsis thaliana with 30 samples.

Results

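The 53 genes described here copy DNA and wrap it into chromatin, and they were followed in the wounded end of detached Arabidopsis leaves with and without the auxin transport inhibitor NPA. They were chosen by locus identifier, by what they encode, as 53 of the 37686 genes in the deposited tables. There were 6 genes of the MCM helicase (MCM2 to MCM7), 6 of origin licensing (ORC1A, ORC1B, ORC2, ORC6, CDC6, CDT1A), 7 of the replisome (CDC45, ETG1, PCNA1, PCNA2, ICU2, POLA2, AT5G63960), 2 of deoxynucleotide supply (TSO2, RNR1), 2 of the chromatin assembly factor CAF-1 (FAS1, FAS2) and 6 of G1/S control (CYCD3;1, CYCD4;1, CYCA3;1, CYCA3;2, E2FA, RBR1). The other 24 encode histones: 5 H3, 8 H4, 4 H2A, 2 H2A.X and 5 H2B genes. All 53 loci were found in the RefSeq annotation of TAIR10.1, which names 39 of them. That annotation gives HTA3 and HTA5 as H2A.X, a variant, so these 2 are not canonical H2A genes and are kept apart below.

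Leaves cut from Arabidopsis can form roots at the wound, and the study followed RNA in that region over time. Seedlings of wild-type Col-0 were 12 d old, kept at 22 °C under days of 16 h light and nights of 8 h. The blades of the first leaf pair were kept on B5 medium without sucrose in continuous light, with no addition (mock) or with NPA at a dose the labels do not give. RNA from the wounded end was sequenced in 30 libraries that form 15 groups of 2, which are T0 (at detachment) and both media at 6, 12 and 24 h and on days 2, 3, 4 and 5. All groups are of 1 genotype, and T0 is shared by both media. The labels do not say that the 2 libraries of a group came from separate plants or cultures. The p-values therefore measure the spread between these libraries, and whether it is one between plants is unknown. In 9 of the 15 pairs, all from T0 to 2 d, it includes a difference of 1.5 times or more in the clock gene TOC1. In the other 6 pairs, at 3 d to 5 d, it may be technical. Levels are in TPM, a measure of the share of a library's transcripts that came from a gene, given as replicate 1 and then replicate 2. Differences are on the log2(TPM + 1) scale, ± SE, and understate the change of low genes. A gene was called, and is said to have risen or fallen, at an adjusted p under 0.05 in limma over 20654 genes.

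Before a cell copies its DNA, the origin recognition complex, CDC6 and CDT1 load the ring-shaped MCM helicase at origins, and CDC45 and the GINS complex later switch it on. D-type cyclins lift the block that the retinoblastoma-related protein places on E2F factors, which then drive the genes of DNA synthesis. Histones are made in bulk in S phase, and CAF-1 places H3 and H4 on new DNA. Plant cells can also copy DNA without dividing, which is common in growing leaves, so these genes mark DNA synthesis rather than division.

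The sequence before each gene was read from TAIR10.1 as the 250 bases upstream of the annotated gene start, 5′ to 3′ on the gene's strand. Shown are the windows of 3 replication genes and 4 histone genes that hold the motifs searched and overlap no other annotated gene. Capitals mark the motif matches.
MCM2, chr1:16969964-16970213, plus strand: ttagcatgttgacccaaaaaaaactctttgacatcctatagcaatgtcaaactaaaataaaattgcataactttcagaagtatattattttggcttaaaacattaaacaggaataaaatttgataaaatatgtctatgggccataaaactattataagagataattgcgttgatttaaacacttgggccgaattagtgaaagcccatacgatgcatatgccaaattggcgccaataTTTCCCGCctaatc
MCM3, chr5:18773707-18773956, minus strand: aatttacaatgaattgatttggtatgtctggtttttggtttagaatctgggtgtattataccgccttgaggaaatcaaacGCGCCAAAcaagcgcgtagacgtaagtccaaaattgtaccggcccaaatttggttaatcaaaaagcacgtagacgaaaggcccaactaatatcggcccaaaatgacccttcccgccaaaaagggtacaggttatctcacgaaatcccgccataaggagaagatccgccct
FAS1, chr1:24324092-24324341, minus strand: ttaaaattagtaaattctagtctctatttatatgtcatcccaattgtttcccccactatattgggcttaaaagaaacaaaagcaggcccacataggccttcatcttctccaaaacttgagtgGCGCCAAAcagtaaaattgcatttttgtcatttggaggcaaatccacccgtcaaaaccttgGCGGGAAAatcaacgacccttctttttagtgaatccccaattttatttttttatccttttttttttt
AT1G09200 (H3), chr1:2972335-2972584, minus strand: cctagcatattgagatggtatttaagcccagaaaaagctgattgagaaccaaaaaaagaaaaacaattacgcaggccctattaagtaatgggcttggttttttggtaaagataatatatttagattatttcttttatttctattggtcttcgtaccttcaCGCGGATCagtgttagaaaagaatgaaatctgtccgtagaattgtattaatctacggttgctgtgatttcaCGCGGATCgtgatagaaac
AT5G10400 (H3), chr5:3270958-3271207, minus strand: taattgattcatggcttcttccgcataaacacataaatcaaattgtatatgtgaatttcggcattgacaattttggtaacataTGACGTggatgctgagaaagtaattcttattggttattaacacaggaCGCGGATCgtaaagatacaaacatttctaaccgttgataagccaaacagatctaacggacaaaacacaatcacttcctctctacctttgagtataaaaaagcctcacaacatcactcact
HTA10, chr1:18926561-18926810, plus strand: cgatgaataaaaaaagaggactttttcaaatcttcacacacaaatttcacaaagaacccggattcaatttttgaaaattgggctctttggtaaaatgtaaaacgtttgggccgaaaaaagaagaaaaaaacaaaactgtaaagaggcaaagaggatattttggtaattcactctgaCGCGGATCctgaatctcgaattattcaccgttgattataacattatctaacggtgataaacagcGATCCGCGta
HTB2, chr5:7652715-7652964, minus strand: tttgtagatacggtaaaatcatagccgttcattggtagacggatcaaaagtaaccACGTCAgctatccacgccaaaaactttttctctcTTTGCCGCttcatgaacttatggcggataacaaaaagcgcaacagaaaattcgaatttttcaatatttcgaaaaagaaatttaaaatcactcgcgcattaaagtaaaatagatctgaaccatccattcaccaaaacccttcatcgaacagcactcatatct

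The motifs were an E2F-type site (TTTCCCGC, TTTCGCGC, TTTGCCGC or TTTGGCGC), the histone octamer CGCGGATC and the hexamer ACGTCA known from plant histone promoters, each on both strands, and no matches in these windows overlapped each other. An E2F-type match was found in 14 of 53 windows (26.4%), against 387 of 27443 protein-coding genes (1.41%). It was held by 5 of the 6 MCM genes, both CAF-1 genes, ORC1A, ORC2, ICU2 and RBR1, and by 3 of 24 histone genes (12.5%). The octamer was found before 7 of 24 histone genes (29.2%) and before none of the 29 other members, against 37 of 27443 genes (0.135%). It was found before 3 H3 genes (AT5G65360, AT1G09200 and AT5G10400), 2 H4 genes (AT1G07660 and AT5G59690) and 2 H2A genes (HTA10 and HTA13). The hexamer was found before 6 of 24 histone genes (25%), 4 of them among the 5 H2B genes, and before 2 of the 29 others, against 2110 of 27443 (7.69%). CYCD3;1, CYCD4;1, PCNA1 and TSO2 have no match in these windows. Of the 53 windows 14 overlap a neighbouring annotated gene, and a match is a description of letters, not evidence of binding.

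**Figure D1:**
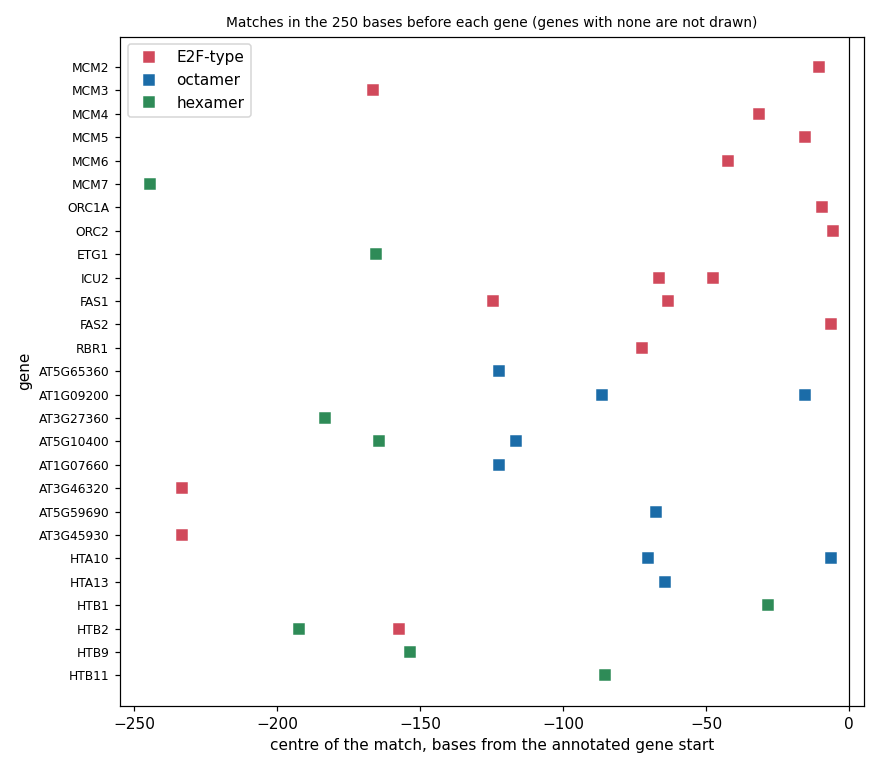
Centres of motif matches on the x axis, in bases from the annotated gene start, for each gene with a match on the y axis. E2F-type matches lie before 5 of the 6 MCM genes and before some genes of other classes, while the octamer lies before 7 histone genes and the hexamer before 4 of 5 H2B genes.

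The classes also differ in gene structure. Of the 24 histone genes 17 have a transcript of 1 exon, against 3 of the 29 others, which reach 31 exons. Histone paralogs are close copies: coding sequences of equal length were identical at 78.8% to 98.1% of bases within H4 and at 80.3% to 89.5% within H3. None of the 29 other members shares a stretch of 100 bases with another gene's transcripts, and 5 of 24 histone genes do. The share was highest at 31.2% for AT3G27360 (H3), with AT3G27380. The latter is not a member but a neighbouring gene whose annotation also overlaps the window before AT3G27360. Next came the H4 genes AT3G46320 and AT3G45930, and then AT1G07660 and AT1G07820. With stretches of 50 bases 12 histone genes share some, at most 35.6%. The read length is not given in the sources used here, so how reads were split between genes that share stretches is uncertain. Histone genes also lie near each other. Of 8 pairs of members within 50 kb with no other member between them, 6 are pairs of histone genes. The closest are the H3 genes AT5G10390 and AT5G10400 on chromosome 5, 577 bases apart.

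Values of the 2 T0 libraries stood further apart than those of any other pair (r across genes 0.888, against 0.964 to 0.988), and they were at opposite phases of the clock. The evening gene TOC1 was at 2.25 and 84.3 TPM and the morning gene CCA1 at 318 and 0.13 TPM. Of the 53 members 52 were higher in the T0 library with more TOC1, by a median log2 of 0.84, while 62.7% of all genes tested were higher there (median 0.18). In all 9 replicate pairs, T0 included, whose TOC1 differed by 1.5 times or more, between 29 and 52 of the 53 members were higher in the library with more TOC1, as were 53.4% to 71.2% of all genes tested. The lowest count, 29 at mock 6 h, lay near the 53.4% of all genes there, and the other 8 counts were 44 or more. In the other 6 pairs, all at 3 d to 5 d, the count ran from 8 to 42, against 44% to 62.3% of all genes. The part of the clock in the results below was not tested beyond a fit with a clock term, given where it changes a count. Leaf photosynthesis genes (5 listed) summed to between 29072 and 64885 TPM in every library, as the tissue label says, and shoot meristem markers (4 listed) to at most 1.02 TPM. Stomatal lineage markers, whose precursors divide in young leaves, were 7 of 7 lower at 5 d than at 6 h in both media. In bulk tissue, fewer cells of a kind and less RNA per cell cannot be told apart.

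**Figure D2:**
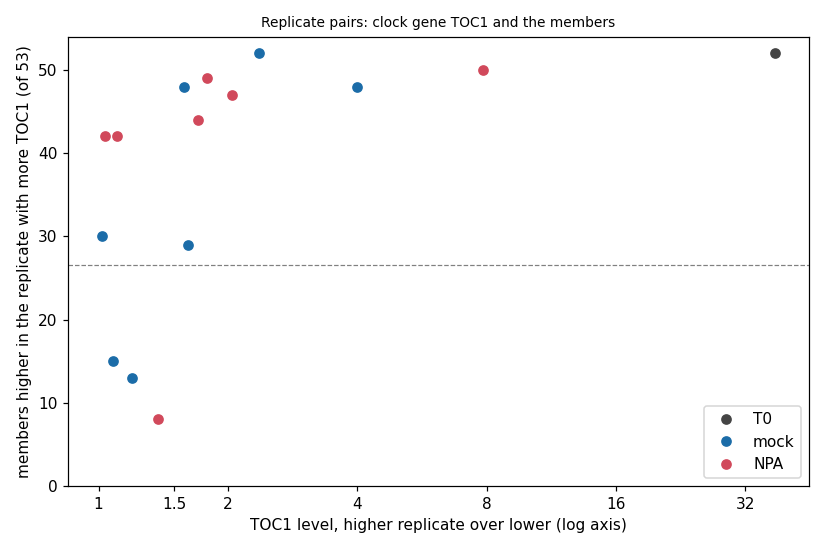
For each of the 15 replicate pairs, the x axis (log scale) gives the TOC1 level of the higher library over the lower and the y axis the number of members, of 53, that were higher in the library with more TOC1. All 9 pairs at a ratio of 1.5 or more lie at 29 or above, with the T0 pair at 52. The dashed line marks an even split, and over these 9 pairs 53.4% to 71.2% of all genes tested were higher in that library.

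From 6 h onward, many genes of DNA synthesis rose in mock within the first day. There, 24 of 52 members tested were higher at 24 h than at 6 h and 0 lower (10.0% of all genes were higher and 8.01% lower). They were 21 of 28 replication and G1/S genes and 3 of 24 histone genes. At 2 d the count was 20 higher and 0 lower (background 12.8% higher and 9.26% lower), with 3 histone genes. By 5 d it was 35 higher and 0 lower (background 25.5% and 13.3%), and now 15 of 24 histone genes were among them beside 20 of 28 others. The median log2 difference of the members was 0.70, 0.70 and 0.85 at these times, against 0.02, 0.02 and 0.11 over all genes. Under NPA, 14 members were higher at 2 d than at 6 h and 0 lower (background 10.8% and 13.5%), and 22 and 0 at 5 d (background 19.0% and 19.1%), with medians of 0.43 and 0.65 against -0.02 and -0.01. Histone genes were 1 and 7 of these.

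Counts depended on single libraries of the pairs. The shares of all genes called without 1 library are not given here, so these counts cannot be set against a background. Without mock 6 h replicate 2 or without mock 24 h replicate 2 the 24 h count was 8, and the 2 d count was 9 without mock 6 h replicate 2 or without mock 2 d replicate 1. The 5 d count was 21 and 20 without mock 6 h replicates 1 and 2 and 15 without mock 5 d replicate 2. Under NPA the counts were 5 without NPA 6 h replicate 1 and 6 without NPA 2 d replicate 1 at 2 d, and 6 without NPA 6 h replicate 1 and 7 without NPA 5 d replicate 1 at 5 d. TOC1 stood at 48.6 and 30.2 TPM in mock at 6 h, 26.9 and 63.7 at 24 h and 32.5 and 30.03 at 5 d. With the clock term, added after seeing the data, the mock counts were 40, 38 and 50 and the NPA counts 30 and 40. The share of all genes called with that term is not given here, so these counts cannot be set against a background. Scaled by TMM factors or by quantiles the mock 5 d count was 35 and 31, again with 0 lower, although the share of higher calls among all genes went from 65.7% to 55.5% and 45.2%.

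**Figure D3:**
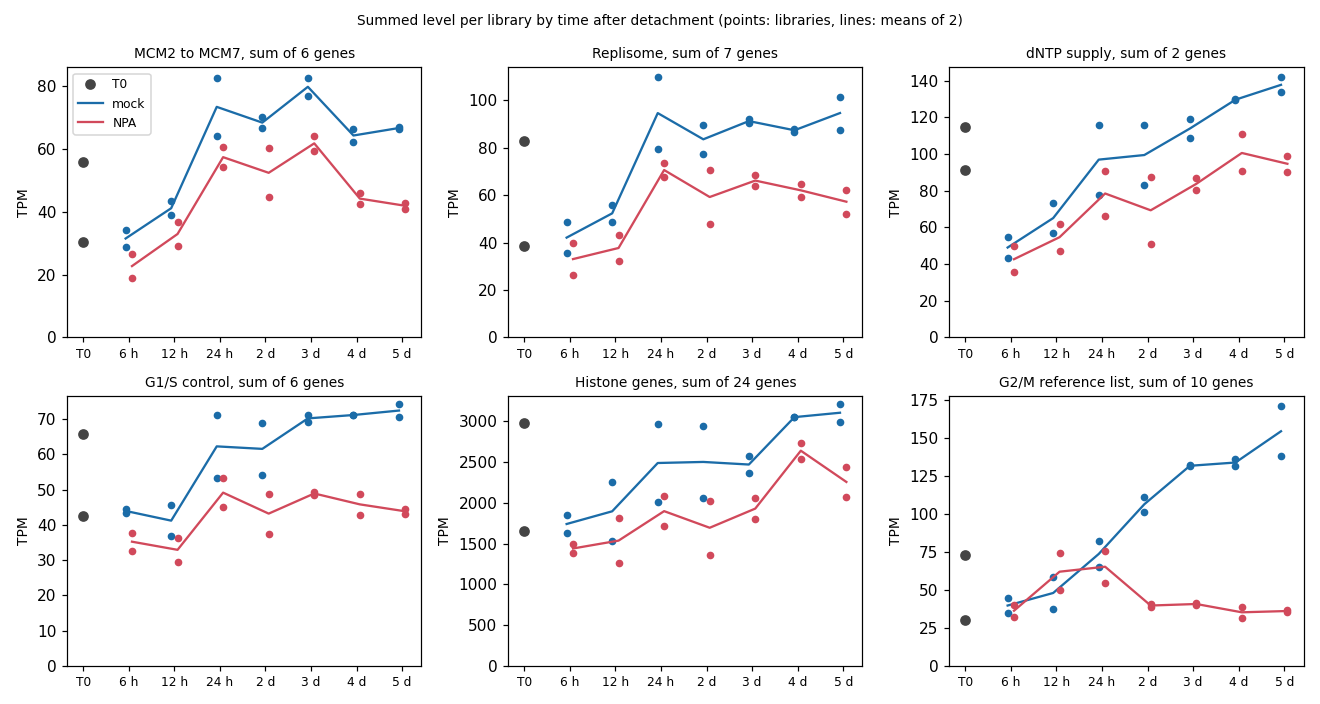
Summed TPM (y axis, from 0) of 6 gene classes in every library by time after detachment (x axis, T0 to 5 d), with points for libraries and lines for the means of 2. The mean of 2 libraries in mock was highest at 3 d for the MCM sum and at 5 d for the histone sum. The mean NPA sums lay below the mock means at all 7 times for MCM and for histones. Single libraries of the media overlapped at 12 h and 24 h for histones and at no time for MCM. The G2/M reference list parted between media from 2 d on.

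The classes reached their highest mean level at different times. All 6 MCM genes were highest at 3 d in mock, and both CAF-1 genes at 24 h. All 24 histone genes were highest at 4 d or 5 d in mock (8 at 4 d and 16 at 5 d), and 23 of 24 at 4 d under NPA. Among the 6 MCM genes under NPA, 5 were highest at 3 d and 1 at 24 h. These orders describe means of 2 and were not tested.

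The MCM2 to MCM7 subunits form the helicase ring, and the 6 genes moved together. The 6 MCM genes summed to 30.4 and 55.8 TPM at T0 and, in mock, 34.2 and 28.7 TPM at 6 h, 38.9 and 43.3 at 12 h and then 64 and 82.6 at 24 h. In mock the sum was 70.0 and 66.6 TPM at 2 d, 76.8 and 82.5 at 3 d, 66.3 and 62.1 at 4 d and then 66.8 and 66.4 at 5 d. Under NPA the sum was 18.8 and 26.6 TPM at 6 h, 36.9 and 28.9 at 12 h, 60.5 and 54.2 at 24 h, 60.1 and 44.6 at 2 d, 59.3 and 64.1 at 3 d, 42.4 and 45.9 at 4 d and then 42.8 and 40.9 at 5 d. Both mock libraries at 24 h stood above both at 6 h, and so did both NPA libraries. MCM2 stood at 4.42 and 8.73 TPM at T0 and, in mock, 5.42 and 4.62 TPM at 6 h, 6.06 and 7.19 at 12 h and then 11.5 and 14.2 at 24 h. In mock MCM2 stood at 11 and 12.4 TPM at 2 d, 13.3 and 14.3 at 3 d, 11 and 10.9 at 4 d and then 11.4 and 10.5 at 5 d. Under NPA MCM2 stood at 2.96 and 4.69 TPM at 6 h, 5.8 and 5.12 at 12 h, 10.6 and 9.58 at 24 h, 10.9 and 7.84 at 2 d, 10.3 and 10.9 at 3 d, 7.54 and 7.39 at 4 d and then 7.41 and 6.97 at 5 d. MCM2 overlapped between media at 6 h, and at the other times both NPA libraries were the lower. Every mock library of MCM2 from 24 h on lay above all 4 at 6 h and 12 h. MCM3 stood at 4.92 and 9.76 TPM at T0 and, in mock, 6.48 and 4.69 TPM at 6 h, 7.33 and 8.38 at 12 h and then 13.1 and 17.2 at 24 h. In mock MCM3 stood at 14.1 and 13.7 TPM at 2 d, 15.4 and 18 at 3 d, 13.5 and 12.3 at 4 d and then 13.9 and 12.9 at 5 d. Under NPA MCM3 stood at 3.37 and 5.41 TPM at 6 h, 7.15 and 5.76 at 12 h, 12 and 11.4 at 24 h, 11.5 and 10.1 at 2 d, 12.5 and 13.7 at 3 d, 9.09 and 10.1 at 4 d and then 8.19 and 8.55 at 5 d. In MCM3 both NPA libraries lay below both mock libraries at all times but 6 h, where they overlapped. MCM4 stood at 4.85 and 7.55 TPM at T0 and, in mock, 5.07 and 4.07 TPM at 6 h, 5.93 and 5.9 at 12 h and then 9.65 and 11.7 at 24 h. In mock MCM4 stood at 10.7 and 9.56 TPM at 2 d, 12.5 and 12.4 at 3 d, 10.4 and 9.55 at 4 d and then 10.1 and 10.6 at 5 d. Under NPA MCM4 stood at 2.97 and 3.55 TPM at 6 h, 5.2 and 4.19 at 12 h, 7.99 and 7.37 at 24 h, 8.07 and 6.82 at 2 d, 9.27 and 8.75 at 3 d, 6.51 and 6.04 at 4 d and then 6.75 and 6.2 at 5 d. MCM4 did not overlap between the media at any time and was lower under NPA. MCM5 stood at 6.18 and 10.8 TPM at T0 and, in mock, 6.39 and 6.07 TPM at 6 h, 7.1 and 7.77 at 12 h and then 10.6 and 12.8 at 24 h. In mock MCM5 stood at 11.6 and 10.9 TPM at 2 d, 12.9 and 13.5 at 3 d, 10.9 and 10.3 at 4 d and then 10.9 and 10.9 at 5 d. Under NPA MCM5 stood at 3.78 and 5.25 TPM at 6 h, 6.9 and 4.78 at 12 h, 9.84 and 8.91 at 24 h, 10.1 and 7.13 at 2 d, 9.88 and 10.5 at 3 d, 6.36 and 6.79 at 4 d and then 6.87 and 6.85 at 5 d. Both NPA libraries of MCM5 lay below both mock libraries at every time. MCM6 stood at 3.16 and 5.9 TPM at T0 and, in mock, 4.45 and 3.27 TPM at 6 h, 5.27 and 5.44 at 12 h and then 7.17 and 10.02 at 24 h. In mock MCM6 stood at 8.27 and 7.16 TPM at 2 d, 8.56 and 9.18 at 3 d, 7.35 and 6.62 at 4 d and then 6.92 and 7.11 at 5 d. Under NPA MCM6 stood at 1.98 and 3.2 TPM at 6 h, 4.72 and 4.12 at 12 h, 7.8 and 6.64 at 24 h, 6.76 and 4.49 at 2 d, 6.47 and 7.67 at 3 d, 4.35 and 5.41 at 4 d and then 5.1 and 4.81 at 5 d. In MCM6 both NPA libraries lay below both mock libraries at all times but 24 h, where they overlapped. MCM7 (PROLIFERA) stood at 6.83 and 13.1 TPM at T0 and, in mock, 6.41 and 5.97 TPM at 6 h, 7.18 and 8.61 at 12 h and then 11.9 and 16.6 at 24 h. In mock MCM7 stood at 14.3 and 12.9 TPM at 2 d, 14.2 and 15.1 at 3 d, 13.1 and 12.5 at 4 d and then 13.4 and 14.3 at 5 d. Under NPA MCM7 stood at 3.7 and 4.52 TPM at 6 h, 7.08 and 4.96 at 12 h, 12.2 and 10.3 at 24 h, 12.7 and 8.2 at 2 d, 10.9 and 12.6 at 3 d, 8.55 and 10.2 at 4 d and then 8.51 and 7.49 at 5 d. MCM7 overlapped between the media at 24 h and was otherwise lower in both NPA libraries.

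All 6 MCM genes rose in mock at 24 h, 2 d and 5 d against 6 h, and all 6 rose under NPA at 2 d and 5 d. The difference at 24 h in mock was 1.2 ± 0.21 (adjusted p = 0.00128) for MCM2, 0.81 ± 0.20 (adjusted p = 0.00938) for MCM5 and 1.07 ± 0.23 (adjusted p = 0.00498) for MCM7. At 5 d against 6 h MCM2 stood 0.99 ± 0.21 (adjusted p = 0.00127) higher in mock and 0.79 ± 0.21 (adjusted p = 0.0077) higher under NPA. At 2 d under NPA MCM3 and MCM7 showed the highest differences of all members, 1.15 ± 0.22 (adjusted p = 0.00122) and 1.14 ± 0.23 (adjusted p = 0.00198). Calls lost when 1 library was left out, with the difference then found, were at 24 h MCM5 and MCM7 without mock 6 h replicate 2 (0.78 and 1.03) and without mock 24 h replicate 2 (0.68 and 0.85), and at 5 d under NPA MCM2 without NPA 6 h replicate 1 (0.52).

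Origin licensing genes mark replication origins and load the helicase there. Of the 5 tested, 4, 3 and 3 rose in mock at 24 h, 2 d and 5 d, and 1 and 2 under NPA at 2 d and 5 d. CDC6 helps load the helicase, and it was the only member whose NPA libraries both lay above mock at any time. CDC6 stood at 1.1 and 3.85 TPM at T0 and, in mock, 1.66 and 1.22 TPM at 6 h, 1.16 and 1.49 at 12 h and then 3.76 and 4.65 at 24 h. In mock CDC6 stood at 3.49 and 3.01 TPM at 2 d, 3.3 and 3.39 at 3 d, 2.01 and 2.44 at 4 d and then 3.02 and 2.61 at 5 d. Under NPA CDC6 stood at 0.74 and 1.56 TPM at 6 h, 1.55 and 0.84 at 12 h, 3.4 and 3.85 at 24 h, 2.82 and 2.06 at 2 d, 3.33 and 3.31 at 3 d, 2.8 and 2.77 at 4 d and then 2.73 and 2.25 at 5 d. For CDC6 both mock libraries lay above both NPA libraries at 2 d, both NPA libraries lay above both mock libraries at 4 d, and the media overlapped at the other 5 times. CDC6 rose in mock at 24 h by 1.09 ± 0.27 (adjusted p = 0.0113) and under NPA at 5 d by 0.72 ± 0.27 (adjusted p = 0.0458). Its mock difference at 5 d was 0.65 ± 0.27 (adjusted p = 0.0701). CDT1A stood at 3.64 and 6.99 TPM at T0 and, in mock, 5.24 and 4.88 TPM at 6 h, 5.03 and 4.64 at 12 h and then 8.03 and 8.77 at 24 h. In mock CDT1A stood at 7.79 and 7.23 TPM at 2 d, 8.18 and 9.54 at 3 d, 7.62 and 6.95 at 4 d and then 7.73 and 7.73 at 5 d. Under NPA CDT1A stood at 4.26 and 3.46 TPM at 6 h, 4.85 and 3.94 at 12 h, 7.46 and 7.03 at 24 h, 5.53 and 4.6 at 2 d, 5.53 and 6.78 at 3 d, 3.95 and 4.48 at 4 d and then 4.85 and 3.43 at 5 d. CDT1A overlapped between media at 12 h, and at the other times both NPA libraries were the lower. CDT1A, the partner of CDC6 in loading, rose in mock by 0.63 ± 0.19 (adjusted p = 0.0297) at 24 h and 0.53 ± 0.19 (adjusted p = 0.0374) at 5 d. Calls lost without 1 library were, at 24 h in mock, CDC6 and CDT1A without mock 6 h replicate 2 (0.96 and 0.59) and without mock 24 h replicate 2 (0.97 and 0.58); CDT1A without mock 6 h replicate 1 (0.68) and without mock 24 h replicate 1 (0.69). At 5 d in mock they were CDT1A without mock 6 h replicate 1 (0.57), without mock 6 h replicate 2 (0.48), without mock 5 d replicate 1 (0.53) and without mock 5 d replicate 2 (0.53), and that call was also lost with quantiles (0.28). At 5 d under NPA they were CDC6 without NPA 6 h replicate 1 (0.44), without NPA 5 d replicate 1 (0.62) and without NPA 5 d replicate 2 (0.82). The CDC6 call under NPA was also lost with a pseudocount of 5 (0.29) and with no filter (0.72).

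The origin recognition complex marks origins. ORC1A stood at 0.27 and 0.63 TPM at T0 and, in mock, 0.34 and 0.27 TPM at 6 h, 0.45 and 0.50 at 12 h and then 0.47 and 0.69 at 24 h. In mock ORC1A stood at 0.56 and 0.30 TPM at 2 d, 0.69 and 0.51 at 3 d, 0.55 and 0.39 at 4 d and then 0.33 and 0.49 at 5 d. Under NPA ORC1A stood at 0.16 and 0.19 TPM at 6 h, 0.29 and 0.17 at 12 h, 0.37 and 0.36 at 24 h, 0.30 and 0.42 at 2 d, 0.31 and 0.32 at 3 d, 0.34 and 0.34 at 4 d and then 0.26 and 0.29 at 5 d. ORC1A, with its highest value at 0.69 TPM, was the only member under the filter of 1 TPM in 2 libraries and was not tested. ORC1B stood at 1.8 and 3.21 TPM at T0 and, in mock, 2.54 and 2.09 TPM at 6 h, 1.88 and 2.47 at 12 h and then 3.33 and 3.84 at 24 h. In mock ORC1B stood at 3.08 and 3.09 TPM at 2 d, 2.86 and 3.24 at 3 d, 2.85 and 2.3 at 4 d and then 2.82 and 2.73 at 5 d. Under NPA ORC1B stood at 1.5 and 1.62 TPM at 6 h, 1.37 and 1.21 at 12 h, 2.62 and 2.53 at 24 h, 2.89 and 1.92 at 2 d, 2.27 and 2.33 at 3 d, 1.78 and 1.53 at 4 d and then 1.57 and 1.49 at 5 d. For ORC1B the libraries of the media overlapped at no time, with NPA the lower. ORC2 stood at 1.35 and 2.53 TPM at T0 and, in mock, 1.61 and 1.4 TPM at 6 h, 2.13 and 2.38 at 12 h and then 3.56 and 5.05 at 24 h. In mock ORC2 stood at 3.87 and 3.61 TPM at 2 d, 3.61 and 3.98 at 3 d, 3.73 and 3.58 at 4 d and then 3.92 and 4.75 at 5 d. Under NPA ORC2 stood at 0.68 and 1.28 TPM at 6 h, 1.81 and 1.19 at 12 h, 3.58 and 2.72 at 24 h, 3.22 and 2.44 at 2 d, 3.36 and 3.88 at 3 d, 3.07 and 3.39 at 4 d and then 3.22 and 2.29 at 5 d. ORC2 overlapped between the media at 24 h and 3 d and was otherwise lower in both NPA libraries. ORC6 stood at 1.77 and 4.68 TPM at T0 and, in mock, 3.82 and 2.26 TPM at 6 h, 3.19 and 3.21 at 12 h and then 6.16 and 8.25 at 24 h. In mock ORC6 stood at 6.43 and 6.45 TPM at 2 d, 6.16 and 7.21 at 3 d, 6.38 and 6.68 at 4 d and then 7.82 and 7.64 at 5 d. Under NPA ORC6 stood at 2.22 and 3.25 TPM at 6 h, 3.45 and 1.72 at 12 h, 4.52 and 4.08 at 24 h, 4.72 and 2.79 at 2 d, 4.59 and 5.09 at 3 d, 5.47 and 5.21 at 4 d and then 5.98 and 4.4 at 5 d. ORC6 overlapped between media at 6 h and 12 h, and at the other times both NPA libraries were the lower. In mock ORC2 and ORC6 were higher in every library from 24 h on than in any at 6 h, whereas ORC1B libraries at 5 d lay only just above those at 6 h.

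At the replication fork, the PCNA clamp holds the polymerases on DNA, and most genes of this class rose in mock. In mock 5, 4 and 5 of 7 rose at 24 h, 2 d and 5 d, and under NPA 4 and 3 at 2 d and 5 d. ETG1, a helicase partner known as an E2F target, had the highest 24 h difference of all members. ETG1 stood at 4.72 and 10.2 TPM at T0 and, in mock, 4.64 and 3.6 TPM at 6 h, 5.29 and 6.18 at 12 h and then 11.7 and 13.6 at 24 h. In mock ETG1 stood at 10.6 and 11.3 TPM at 2 d, 11.6 and 10.7 at 3 d, 10.9 and 11.1 at 4 d and then 12 and 12.5 at 5 d. Under NPA ETG1 stood at 3.25 and 4.09 TPM at 6 h, 5.8 and 4.11 at 12 h, 10.4 and 9.66 at 24 h, 9.82 and 7.81 at 2 d, 10.4 and 10.1 at 3 d, 8.37 and 9.26 at 4 d and then 9.2 and 7.46 at 5 d. In ETG1 both NPA libraries lay below both mock libraries at all times but 6 h and 12 h, where they overlapped. ETG1 rose by 1.42 ± 0.22 (adjusted p = 5.10e-04) at 24 h in mock and by 1.00 ± 0.22 (adjusted p = 0.00191) at 5 d under NPA, and both calls held without any 1 library. PCNA1 stood at 9.83 and 24 TPM at T0 and, in mock, 11.7 and 8.85 TPM at 6 h, 13.8 and 14.3 at 12 h and then 20.6 and 26.8 at 24 h. In mock PCNA1 stood at 25.6 and 20.4 TPM at 2 d, 25 and 27.4 at 3 d, 26.1 and 26.4 at 4 d and then 25.6 and 36.3 at 5 d. Under NPA PCNA1 stood at 6.15 and 7.94 TPM at 6 h, 9.37 and 7.74 at 12 h, 16.7 and 17.3 at 24 h, 17.1 and 12.4 at 2 d, 15.8 and 17.8 at 3 d, 14 and 15 at 4 d and then 14.4 and 11.8 at 5 d. PCNA1 did not overlap between the media at any time and was lower under NPA. PCNA2 stood at 13.3 and 28.5 TPM at T0 and, in mock, 18.8 and 12.1 TPM at 6 h, 15 and 20.4 at 12 h and then 25.2 and 39.2 at 24 h. In mock PCNA2 stood at 28.8 and 25.8 TPM at 2 d, 28.1 and 28 at 3 d, 28.8 and 30.3 at 4 d and then 29.5 and 31.7 at 5 d. Under NPA PCNA2 stood at 8.45 and 15.9 TPM at 6 h, 15.2 and 10.8 at 12 h, 24.8 and 22.4 at 24 h, 24.4 and 14 at 2 d, 18.2 and 20.6 at 3 d, 22.2 and 23.7 at 4 d and then 24.4 and 18 at 5 d. PCNA2 overlapped between media at 6 h and 12 h, and at the other times both NPA libraries were the lower. PCNA1 rose in mock by 1.13 ± 0.28 (adjusted p = 0.0101) at 24 h and 1.49 ± 0.28 (adjusted p = 3.61e-04) at 5 d, and under NPA by 0.82 ± 0.28 (adjusted p = 0.0273) at 5 d. Calls of PCNA1 lost without 1 library were at 24 h in mock without mock 6 h replicate 2 (0.95) and without mock 24 h replicate 2 (0.95), and at 5 d under NPA without NPA 6 h replicate 1 (0.66) and without NPA 5 d replicate 1 (0.68).

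ICU2 stood at 3.26 and 5.13 TPM at T0 and, in mock, 3.1 and 2.5 TPM at 6 h, 4.2 and 4.5 at 12 h and then 7.12 and 9.74 at 24 h. In mock ICU2 stood at 7.14 and 5.91 TPM at 2 d, 8.09 and 8.07 at 3 d, 5.58 and 4.93 at 4 d and then 5.07 and 5.06 at 5 d. Under NPA ICU2 stood at 1.94 and 2.98 TPM at 6 h, 4.45 and 2.96 at 12 h, 6.63 and 5.4 at 24 h, 6.37 and 4.41 at 2 d, 6.08 and 6.18 at 3 d, 4.29 and 4.11 at 4 d and then 3.54 and 4.23 at 5 d. In ICU2 both NPA libraries lay below both mock libraries at all times but 6 h, 12 h and 2 d, where they overlapped. ICU2 is the catalytic subunit of DNA polymerase alpha, which starts each new strand, and it rose by 1.3 ± 0.20 (adjusted p = 5.19e-04) at 24 h in mock. CDC45 stood at 1.56 and 4.09 TPM at T0 and, in mock, 1.56 and 1.25 TPM at 6 h, 1.81 and 2.49 at 12 h and then 2.32 and 3.88 at 24 h. In mock CDC45 stood at 3.56 and 2.35 TPM at 2 d, 3.08 and 2.92 at 3 d, 2.48 and 2.32 at 4 d and then 2.65 and 2.4 at 5 d. Under NPA CDC45 stood at 0.76 and 1.19 TPM at 6 h, 1.55 and 1.22 at 12 h, 3.11 and 2.38 at 24 h, 2.19 and 1.21 at 2 d, 1.75 and 1.66 at 3 d, 1.86 and 2.58 at 4 d and then 1.87 and 1.56 at 5 d. CDC45 overlapped between the media at 24 h and 4 d and was otherwise lower in both NPA libraries. CDC45 was not called against 6 h in mock at 24 h, 2 d or 5 d, nor under NPA at 2 d or 5 d. POLA2, the second subunit of polymerase alpha, ranged from 3.28 to 10.2 TPM in mock and from 2.69 to 7.3 TPM under NPA. AT5G63960, the catalytic subunit of polymerase delta, ranged from 2.87 to 6.26 and from 2.37 to 5.03 TPM.

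Ribonucleotide reductase makes the deoxynucleotides for DNA synthesis, and its small-subunit gene TSO2 showed the highest difference of any member at 5 d. TSO2 stood at 72.6 and 82.2 TPM at T0 and, in mock, 28 and 25.1 TPM at 6 h, 36 and 50.4 at 12 h and then 46.4 and 67.4 at 24 h. In mock TSO2 stood at 78.7 and 54 TPM at 2 d, 68.5 and 78.1 at 3 d, 97.9 and 96.7 at 4 d and then 99.4 and 113 at 5 d. Under NPA TSO2 stood at 20.7 and 24.6 TPM at 6 h, 43.7 and 32.6 at 12 h, 56.3 and 39.4 at 24 h, 55.3 and 29.3 at 2 d, 48.3 and 52.8 at 3 d, 65.2 and 84.4 at 4 d and then 73.9 and 66.3 at 5 d. TSO2 overlapped between media at 12 h, 24 h and 2 d, and at the other times both NPA libraries were the lower. TSO2 fell in mock by 6 h against T0, -1.51 ± 0.27 (adjusted p = 3.93e-04), which held without either T0 library. It then rose in mock against 6 h by 1.05 ± 0.27 (adjusted p = 0.0125) at 24 h, 1.26 ± 0.27 (adjusted p = 0.00286) at 2 d and 1.96 ± 0.27 (adjusted p = 1.71e-05) at 5 d. Under NPA it rose by 1.59 ± 0.27 (adjusted p = 1.81e-04) at 5 d. The 24 h call was lost without mock 6 h replicate 2 (0.97) and without mock 24 h replicate 2 (0.78). RNR1 stood at 18.9 and 32.7 TPM at T0 and, in mock, 26.5 and 18.4 TPM at 6 h, 20.7 and 23.1 at 12 h and then 31.5 and 48.8 at 24 h. In mock RNR1 stood at 36.9 and 29.4 TPM at 2 d, 40.2 and 41.2 at 3 d, 32.3 and 32.5 at 4 d and then 34.2 and 28.7 at 5 d. Under NPA RNR1 stood at 15 and 25.1 TPM at 6 h, 18.4 and 14.8 at 12 h, 34.7 and 26.6 at 24 h, 32.2 and 21.9 at 2 d, 32.3 and 34.1 at 3 d, 25.3 and 26.3 at 4 d and then 25.2 and 24.1 at 5 d. In RNR1 both NPA libraries lay below both mock libraries at all times but 6 h, 24 h and 2 d, where they overlapped. RNR1, the large subunit, rose at 24 h in mock by 0.80 ± 0.27 (adjusted p = 0.0491), a call lost without mock 6 h replicate 2 (0.55) and without mock 24 h replicate 2 (0.49). It was also lost with a pseudocount of 0.1 (0.82), and with no filter or no variance trend (both 0.80).

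CAF-1 deposits H3 and H4 behind the fork. FAS1 stood at 2.8 and 6.01 TPM at T0 and, in mock, 3.71 and 3.25 TPM at 6 h, 3.63 and 4.56 at 12 h and then 6.54 and 9.2 at 24 h. In mock FAS1 stood at 7.7 and 6.88 TPM at 2 d, 7.67 and 7.52 at 3 d, 6.19 and 6.23 at 4 d and then 5.71 and 5.24 at 5 d. Under NPA FAS1 stood at 1.97 and 3.02 TPM at 6 h, 3.33 and 2.8 at 12 h, 6.42 and 5.52 at 24 h, 6.21 and 4.24 at 2 d, 5.57 and 5.85 at 3 d, 5.1 and 4.44 at 4 d and then 4.82 and 4.42 at 5 d. FAS1 did not overlap between the media at any time and was lower under NPA. FAS2 stood at 2.34 and 4.85 TPM at T0 and, in mock, 2.8 and 2.42 TPM at 6 h, 2.39 and 3.85 at 12 h and then 5.86 and 7.09 at 24 h. In mock FAS2 stood at 5.26 and 4.72 TPM at 2 d, 5.53 and 7.22 at 3 d, 4.45 and 4.87 at 4 d and then 4.29 and 5.22 at 5 d. Under NPA FAS2 stood at 1.83 and 2.29 TPM at 6 h, 3.18 and 2.2 at 12 h, 5.14 and 5.04 at 24 h, 4.76 and 3.00 at 2 d, 4.38 and 4.3 at 3 d, 3.62 and 4.02 at 4 d and then 3.92 and 3.05 at 5 d. FAS2 overlapped between media at 12 h and 2 d, and at the other times both NPA libraries were the lower. Both rose in mock at 24 h and 2 d against 6 h, FAS1 by 0.97 ± 0.23 (adjusted p = 0.00737) at 24 h. That call was lost without mock 6 h replicate 2 (0.90) and without mock 24 h replicate 2 (0.75). Both had their highest mean level at 24 h in both media.

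The G1/S regulators are described one by one. CYCD3;1, a D-type cyclin that promotes entry into the cell cycle, was the member in which the media parted most. CYCD3;1 stood at 6.86 and 13 TPM at T0 and, in mock, 9.72 and 13.9 TPM at 6 h, 8.19 and 8.74 at 12 h and then 6.27 and 10.3 at 24 h. In mock CYCD3;1 stood at 10.9 and 9.9 TPM at 2 d, 15.2 and 15.6 at 3 d, 20.06 and 20.04 at 4 d and then 19.4 and 25.4 at 5 d. Under NPA CYCD3;1 stood at 8.57 and 6.61 TPM at 6 h, 7.91 and 7.53 at 12 h, 8.02 and 6.07 at 24 h, 5.18 and 5.44 at 2 d, 7.53 and 6.3 at 3 d, 4.4 and 6.75 at 4 d and then 4.63 and 6.45 at 5 d. In CYCD3;1 both NPA libraries lay below both mock libraries at all times but 24 h, where they overlapped. In mock all 6 libraries from 3 d on stood above the highest of the earlier cultured libraries, at 13.9 TPM, while no NPA library passed 8.57 TPM. CYCD3;1 rose in mock at 5 d against 6 h by 0.87 ± 0.26 (adjusted p = 0.013), a call lost without mock 6 h replicate 1 (0.64) and without mock 5 d replicate 2 (0.69). Its differences at 24 h in mock, -0.48 ± 0.26 (adjusted p = 0.218), and at 2 d and 5 d under NPA, -0.44 ± 0.26 (adjusted p = 0.244) and -0.40 ± 0.26 (adjusted p = 0.247), were the lowest or among the 2 lowest of the members and were not called. CYCD4;1 stood at 0.43 and 3.97 TPM at T0 and, in mock, 5.66 and 5.78 TPM at 6 h, 3.51 and 4.87 at 12 h and then 6.44 and 6.26 at 24 h. In mock CYCD4;1 stood at 7.06 and 5.78 TPM at 2 d, 8.02 and 7.47 at 3 d, 7.02 and 6.57 at 4 d and then 6.87 and 7.23 at 5 d. Under NPA CYCD4;1 stood at 3.03 and 4.41 TPM at 6 h, 2.5 and 1.71 at 12 h, 4.94 and 4.38 at 24 h, 2.8 and 3.16 at 2 d, 4.63 and 3.99 at 3 d, 2.08 and 3.42 at 4 d and then 2.83 and 2.3 at 5 d. CYCD4;1 did not overlap between the media at any time and was lower under NPA. CYCD4;1 is another D-type cyclin, and its T0 libraries stood far apart.

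**Figure D4:**
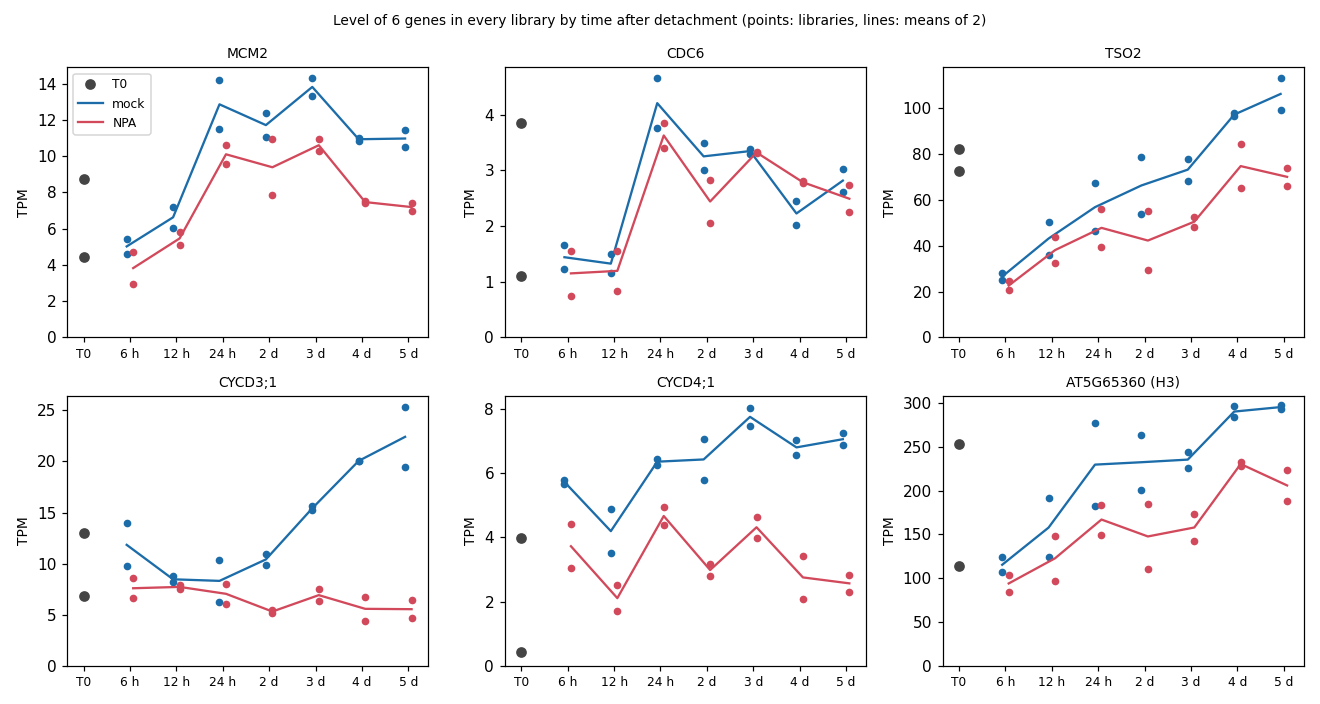
TPM (y axis, from 0) of MCM2, CDC6, TSO2, CYCD3;1, CYCD4;1 and the H3 gene AT5G65360 in every library by time after detachment (x axis), with points for libraries and lines for the means of 2. CYCD3;1 climbs in mock from 3 d to 25.4 TPM and stays at or under 8.57 TPM under NPA, while CDC6 overlaps between media at most times.

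CYCA3;2 stood at 10.8 and 23.6 TPM at T0 and, in mock, 8.62 and 5.17 TPM at 6 h, 6.88 and 12.8 at 12 h and then 15.3 and 24.1 at 24 h. In mock CYCA3;2 stood at 25.3 and 15 TPM at 2 d, 18.9 and 20.8 at 3 d, 21.4 and 21.9 at 4 d and then 19.8 and 17.6 at 5 d. Under NPA CYCA3;2 stood at 4.42 and 7.73 TPM at 6 h, 10.2 and 5.39 at 12 h, 15.4 and 11.7 at 24 h, 17.3 and 7.89 at 2 d, 14.2 and 14.8 at 3 d, 16.4 and 19.5 at 4 d and then 17 and 16.6 at 5 d. Both NPA libraries of CYCA3;2 lay below both mock libraries at 3 d, 4 d and 5 d and overlapped them at the other times. CYCA3;2, an A-type cyclin of S phase, rose in mock by 1.39 ± 0.40 (adjusted p = 0.0245) at 24 h, 1.41 ± 0.40 (adjusted p = 0.0188) at 2 d and 1.35 ± 0.40 (adjusted p = 0.0134) at 5 d. Under NPA it rose at 5 d by 1.37 ± 0.40 (adjusted p = 0.0128). Calls lost without 1 library were at 24 h without mock 6 h replicate 2 (1.07) and without mock 24 h replicate 2 (1.08), and at 2 d without mock 6 h replicate 2 (1.09) and without mock 2 d replicate 1 (1.06). The 5 d call in mock was lost without mock 6 h replicate 2 (1.03) and without mock 5 d replicate 1 (1.27). Under NPA it was lost without NPA 6 h replicate 1 (1.03), without NPA 5 d replicate 1 (1.35) and without NPA 5 d replicate 2 (1.39). CYCA3;1 stood at 2.79 and 6.47 TPM at T0 and, in mock, 2.35 and 2.04 TPM at 6 h, 2.69 and 3.3 at 12 h and then 3.68 and 5.02 at 24 h. In mock CYCA3;1 stood at 5.51 and 3.03 TPM at 2 d, 3.66 and 4.59 at 3 d, 4.13 and 4.66 at 4 d and then 4.54 and 4.74 at 5 d. Under NPA CYCA3;1 stood at 1.37 and 1.83 TPM at 6 h, 2.86 and 1.85 at 12 h, 4.68 and 3.75 at 24 h, 3.64 and 2.46 at 2 d, 3.36 and 3.1 at 3 d, 4.75 and 4.37 at 4 d and then 4.88 and 3.22 at 5 d. For CYCA3;1 the media were apart at 6 h and 3 d, with NPA lower, and overlapped at the other times. CYCA3;1 rose in mock at 5 d by 0.82 ± 0.28 (adjusted p = 0.0255), and that call was lost without any 1 of the 4 libraries (0.75 to 0.89) and under quantile normalization (0.47). E2FA stood at 3.73 and 4.75 TPM at T0 and, in mock, 3.46 and 3.8 TPM at 6 h, 2.74 and 2.96 at 12 h and then 4.54 and 5.07 at 24 h. In mock E2FA stood at 3.81 and 4.14 TPM at 2 d, 5.03 and 4.65 at 3 d, 4.91 and 4.54 at 4 d and then 4.97 and 5.73 at 5 d. Under NPA E2FA stood at 2.96 and 3.00 TPM at 6 h, 2.16 and 2.01 at 12 h, 3.69 and 3.65 at 24 h, 3.77 and 3.84 at 2 d, 3.75 and 4.27 at 3 d, 3.34 and 2.9 at 4 d and then 2.69 and 3.42 at 5 d. E2FA overlapped between the media at 2 d and was otherwise lower in both NPA libraries. E2FA, an activating E2F factor, rose in mock at 5 d by 0.45 ± 0.11 (adjusted p = 0.00447), lost without mock 5 d replicate 2 (0.37) and under quantile normalization (0.15). RBR1 stood at 17.9 and 14 TPM at T0 and, in mock, 14.8 and 12.6 TPM at 6 h, 12.8 and 12.8 at 12 h and then 17.1 and 20.5 at 24 h. In mock RBR1 stood at 16.4 and 16.3 TPM at 2 d, 18.3 and 18.1 at 3 d, 13.8 and 13.4 at 4 d and then 14.9 and 13.7 at 5 d. Under NPA RBR1 stood at 12.3 and 14.2 TPM at 6 h, 10.6 and 11.1 at 12 h, 16.5 and 15.5 at 24 h, 16.2 and 14.7 at 2 d, 15.8 and 16.1 at 3 d, 11.8 and 11.9 at 4 d and then 11.1 and 12.6 at 5 d. RBR1 overlapped between media at 6 h, and at the other times both NPA libraries were the lower. RBR1, which holds E2F factors back, rose at 24 h by 0.43 ± 0.11 (adjusted p = 0.016) in mock, a call lost without mock 6 h replicate 2 (0.32) and without mock 24 h replicate 2 (0.30), and was among the 2 lowest members at 5 d.

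Histone genes package the newly made DNA, and more of them were called in mock at 5 d than at 24 h, as was so over all genes. The 24 histone genes summed to 1658 and 2981 TPM at T0 and, in mock, 1627 and 1853 TPM at 6 h, 1534 and 2257 at 12 h and then 2014 and 2963 at 24 h. In mock the sum was 2941 and 2062 TPM at 2 d, 2363 and 2576 at 3 d, 3056 and 3047 at 4 d and then 2995 and 3215 at 5 d. Under NPA the sum was 1383 and 1496 TPM at 6 h, 1809.6 and 1263 at 12 h, 2084 and 1712 at 24 h, 2025 and 1363 at 2 d, 1799 and 2059 at 3 d, 2539 and 2739.6 at 4 d and then 2436 and 2076 at 5 d. Their sum was highest at 4 d and 5 d in mock, and the NPA sums lay below it at 6 h and from 2 d to 5 d without overlap. By class, 5 of 5 H3, 3 of 8 H4, 2 of 4 H2A, 1 of 2 H2A.X and 4 of 5 H2B genes rose in mock at 5 d against 6 h, where at 24 h there had been 1, 0, 1, 1 and 0. Under NPA the 5 d counts were 3, 0, 1, 1 and 2. Of all genes 10.0% rose at 24 h and 25.5% at 5 d in mock, and 19.0% at 5 d under NPA. In each class the genes with the highest and lowest mean level are given next, and the others follow by their ranges.

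The H3 gene AT5G65360 stood at 114 and 253 TPM at T0 and, in mock, 107 and 124 TPM at 6 h, 124 and 192 at 12 h and then 182 and 277 at 24 h. In mock AT5G65360 stood at 264 and 201 TPM at 2 d, 226 and 244 at 3 d, 284 and 296 at 4 d and then 297 and 293 at 5 d. Under NPA AT5G65360 stood at 84.8 and 103 TPM at 6 h, 149 and 96.9 at 12 h, 184 and 149.8 at 24 h, 185 and 111 at 2 d, 143 and 173 at 3 d, 232 and 228 at 4 d and then 223 and 189 at 5 d. In AT5G65360 both NPA libraries lay below both mock libraries at all times but 12 h and 24 h, where they overlapped. It rose by 0.96 ± 0.32 (adjusted p = 0.0475) at 24 h and 1.35 ± 0.32 (adjusted p = 0.00292) at 5 d in mock and by 1.12 ± 0.32 (adjusted p = 0.0109) at 5 d under NPA. Its 24 h call was lost without any 1 of the 4 libraries (0.66 to 1.26) and with no filter (0.96), its mock 5 d call held in each, and its NPA call was lost without NPA 6 h replicate 1 (0.98) and without NPA 5 d replicate 1 (1.00). The H3 gene AT3G27360 stood at 21.1 and 54.1 TPM at T0 and, in mock, 21.7 and 25.3 TPM at 6 h, 22.7 and 34.1 at 12 h and then 28.6 and 45.3 at 24 h. In mock AT3G27360 stood at 50.8 and 29.7 TPM at 2 d, 38.6 and 41.1 at 3 d, 53.9 and 50.4 at 4 d and then 53 and 57.4 at 5 d. Under NPA AT3G27360 stood at 18 and 20.4 TPM at 6 h, 27.4 and 17.4 at 12 h, 32.2 and 18.8 at 24 h, 26 and 16.3 at 2 d, 21.8 and 21.7 at 3 d, 34.1 and 39.6 at 4 d and then 36.5 and 24.8 at 5 d. AT3G27360 overlapped between the media at 12 h and 24 h and was otherwise lower in both NPA libraries. This gene, whose reads may be shared with AT3G27380, rose in mock at 5 d by 1.2 ± 0.38 (adjusted p = 0.018), a call lost without any 1 of the 4 libraries (1.09 to 1.31). AT5G10400 (H3) stood at 38.6 and 106 TPM at T0 and, in mock, 38.1 and 44.5 TPM at 6 h, 33.9 and 64.4 at 12 h and then 56.2 and 92.1 at 24 h. In mock AT5G10400 stood at 89.4 and 52.3 TPM at 2 d, 70.3 and 70.3 at 3 d, 96.6 and 85.9 at 4 d and then 92.2 and 99.1 at 5 d. Under NPA AT5G10400 stood at 27.3 and 36.6 TPM at 6 h, 44 and 29.4 at 12 h, 56.7 and 38.1 at 24 h, 51.2 and 23.1 at 2 d, 42.7 and 49.3 at 3 d, 65.2 and 72.5 at 4 d and then 66.4 and 56.2 at 5 d. AT5G10400 overlapped between media at 12 h and 24 h, and at the other times both NPA libraries were the lower. The 2 other H3 genes ranged in mock from 67.1 to 193 TPM (AT1G09200) and from 18.4 to 57.8 TPM (AT5G10390), and under NPA from 51.8 to 175 and from 13.7 to 46.1 TPM.

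The H4 gene AT5G59690 stood at 151 and 374 TPM at T0 and, in mock, 132 and 147 TPM at 6 h, 108 and 217 at 12 h and then 174 and 294 at 24 h. In mock AT5G59690 stood at 268 and 164 TPM at 2 d, 197 and 203 at 3 d, 271 and 254 at 4 d and then 251 and 264 at 5 d. Under NPA AT5G59690 stood at 114 and 123 TPM at 6 h, 174 and 89.5 at 12 h, 184 and 141 at 24 h, 195 and 94.5 at 2 d, 145 and 161 at 3 d, 236 and 253 at 4 d and then 226 and 204 at 5 d. In AT5G59690 both NPA libraries lay below both mock libraries at all times but 12 h, 24 h and 2 d, where they overlapped. Its difference at 5 d against 6 h in mock was 0.88 ± 0.42 (adjusted p = 0.108). The H4 gene AT1G07660 stood at 32.1 and 57.3 TPM at T0 and, in mock, 38.9 and 43.1 TPM at 6 h, 36.7 and 38.3 at 12 h and then 40.2 and 49.4 at 24 h. In mock AT1G07660 stood at 53.6 and 38.4 TPM at 2 d, 45.3 and 51.1 at 3 d, 56.1 and 51.4 at 4 d and then 54.6 and 50.9 at 5 d. Under NPA AT1G07660 stood at 39.2 and 36.8 TPM at 6 h, 32.1 and 35.6 at 12 h, 34.9 and 32.4 at 24 h, 44.8 and 32.4 at 2 d, 35.1 and 34.3 at 3 d, 45.8 and 48.2 at 4 d and then 52.2 and 53.4 at 5 d. AT1G07660 overlapped between the media at 6 h, 2 d and 5 d and was otherwise lower in both NPA libraries. AT1G07660 differed by 0.36 ± 0.20 (adjusted p = 0.178) at 5 d in mock, and neither H4 gene was called. AT5G59970 (H4) stood at 60.5 and 84.8 TPM at T0 and, in mock, 45 and 51.3 TPM at 6 h, 35.9 and 59.7 at 12 h and then 36.2 and 68.1 at 24 h. In mock AT5G59970 stood at 67.4 and 40.3 TPM at 2 d, 49.9 and 56.1 at 3 d, 72.4 and 73.1 at 4 d and then 71.7 and 83.1 at 5 d. Under NPA AT5G59970 stood at 42 and 39 TPM at 6 h, 49.2 and 30.7 at 12 h, 49 and 32.7 at 24 h, 39.4 and 21.7 at 2 d, 37 and 38.9 at 3 d, 50.8 and 62.9 at 4 d and then 49.7 and 41 at 5 d. AT5G59970 overlapped between media at 12 h and 24 h, and at the other times both NPA libraries were the lower. AT1G07820 (H4) stood at 38.7 and 114 TPM at T0 and, in mock, 66.1 and 66.1 TPM at 6 h, 50.2 and 82 at 12 h and then 84.6 and 118 at 24 h. In mock AT1G07820 stood at 123 and 97.5 TPM at 2 d, 100.09 and 116 at 3 d, 142 and 142 at 4 d and then 139.8 and 155 at 5 d. Under NPA AT1G07820 stood at 56.4 and 61.6 TPM at 6 h, 66.2 and 40.6 at 12 h, 84.3 and 69.8 at 24 h, 83.2 and 64.4 at 2 d, 79.8 and 92.2 at 3 d, 114 and 128 at 4 d and then 117 and 95.6 at 5 d. In AT1G07820 both NPA libraries lay below both mock libraries at all times but 12 h, where they overlapped. AT1G07660 and AT1G07820 share stretches of 100 bases, so their split is uncertain. The 4 other H4 genes ranged from 29.8 to 166 TPM in mock and from 21.9 to 151 TPM under NPA.

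HTA10 (H2A) stood at 213 and 213 TPM at T0 and, in mock, 163 and 181 TPM at 6 h, 140.3 and 202 at 12 h and then 138 and 191 at 24 h. In mock HTA10 stood at 199.6 and 134 TPM at 2 d, 142 and 170.0 at 3 d, 219 and 215 at 4 d and then 209 and 216 at 5 d. Under NPA HTA10 stood at 137 and 123 TPM at 6 h, 158 and 105 at 12 h, 159.7 and 135 at 24 h, 148 and 100.01 at 2 d, 118 and 136 at 3 d, 170.2 and 181 at 4 d and then 158 and 125 at 5 d. HTA10 overlapped between the media at 12 h, 24 h and 2 d and was otherwise lower in both NPA libraries. HTA10 differed by 0.31 ± 0.24 (adjusted p = 0.327) at 5 d against 6 h in mock. HTA1 (H2A) stood at 28.9 and 30.03 TPM at T0 and, in mock, 14.1 and 23.5 TPM at 6 h, 19.9 and 23.7 at 12 h and then 21.8 and 31 at 24 h. In mock HTA1 stood at 28.8 and 22.1 TPM at 2 d, 26.7 and 26 at 3 d, 33.4 and 31.1 at 4 d and then 34.1 and 34.4 at 5 d. Under NPA HTA1 stood at 18.3 and 14.6 TPM at 6 h, 23.5 and 19.4 at 12 h, 23.2 and 23.7 at 24 h, 24.5 and 22.3 at 2 d, 22.7 and 25 at 3 d, 30.1 and 33 at 4 d and then 25.1 and 22.4 at 5 d. Both NPA libraries of HTA1 lay below both mock libraries at 3 d and 5 d and overlapped them at the other times. HTA1, known for its role in the integration of Agrobacterium T-DNA, rose in mock at 5 d by 0.87 ± 0.19 (adjusted p = 0.00156), which held without any 1 library. HTA2 and HTA13 ranged from 56.4 to 102 TPM and from 36.6 to 74.5 TPM in mock, and from 51.4 to 94.2 and from 31.7 to 65.4 TPM under NPA.

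H2A.X is the H2A variant that is phosphorylated at DNA breaks. HTA5 (H2A.X) stood at 68.3 and 96.3 TPM at T0 and, in mock, 76.1 and 68.5 TPM at 6 h, 77.4 and 87.3 at 12 h and then 102 and 137 at 24 h. In mock HTA5 stood at 128 and 108 TPM at 2 d, 122 and 125 at 3 d, 142 and 141 at 4 d and then 159.7 and 152 at 5 d. Under NPA HTA5 stood at 49.8 and 65.5 TPM at 6 h, 58.8 and 56 at 12 h, 81 and 81.2 at 24 h, 97.2 and 74 at 2 d, 98.1 and 103 at 3 d, 122 and 123 at 4 d and then 129 and 104 at 5 d. For HTA5 the libraries of the media overlapped at no time, with NPA the lower. HTA5 rose at 5 d by 1.1 ± 0.18 (adjusted p = 8.30e-05) in mock and 1.01 ± 0.18 (adjusted p = 2.44e-04) under NPA, and both calls held without any 1 library. HTA3 (H2A.X) stood at 46.5 and 51.3 TPM at T0 and, in mock, 63.4 and 47.4 TPM at 6 h, 44.3 and 44.3 at 12 h and then 48.6 and 71.4 at 24 h. In mock HTA3 stood at 65.8 and 51.9 TPM at 2 d, 55 and 66.1 at 3 d, 66.3 and 65.2 at 4 d and then 69.7 and 94.4 at 5 d. Under NPA HTA3 stood at 26.8 and 44.4 TPM at 6 h, 24.2 and 28.6 at 12 h, 37.8 and 41.8 at 24 h, 40.9 and 31.3 at 2 d, 39.5 and 42.9 at 3 d, 44.6 and 45.6 at 4 d and then 40.0 and 34 at 5 d. HTA3 did not overlap between the media at any time and was lower under NPA. HTA3 differed by 0.56 ± 0.22 (adjusted p = 0.0595) in mock at 5 d, which was not called, and its NPA libraries stayed between 24.2 and 45.6 TPM.

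HTB11 (H2B) stood at 151 and 205 TPM at T0 and, in mock, 129 and 165 TPM at 6 h, 152 and 190.5 at 12 h and then 182 and 234 at 24 h. In mock HTB11 stood at 243 and 186 TPM at 2 d, 208 and 236 at 3 d, 235 and 244 at 4 d and then 222 and 259 at 5 d. Under NPA HTB11 stood at 119 and 125 TPM at 6 h, 157 and 126 at 12 h, 163 and 153 at 24 h, 158 and 127 at 2 d, 160.4 and 181 at 3 d, 191 and 208 at 4 d and then 194 and 166 at 5 d. HTB11 overlapped between media at 12 h, and at the other times both NPA libraries were the lower. HTB1 (H2B) stood at 42.2 and 44.9 TPM at T0 and, in mock, 32.2 and 44.6 TPM at 6 h, 32.5 and 40.4 at 12 h and then 33.7 and 46.8 at 24 h. In mock HTB1 stood at 45.5 and 38.9 TPM at 2 d, 33.7 and 43.7 at 3 d, 48.5 and 53.7 at 4 d and then 47.5 and 67.5 at 5 d. Under NPA HTB1 stood at 31.4 and 29.6 TPM at 6 h, 33.7 and 26.7 at 12 h, 36.9 and 30.9 at 24 h, 31.1 and 27.7 at 2 d, 28.8 and 33.7 at 3 d, 41.9 and 45.5 at 4 d and then 35.4 and 31.5 at 5 d. In HTB1 both NPA libraries lay below both mock libraries at all times but 12 h and 24 h, where they overlapped. HTB11 and HTB1 rose in mock at 5 d by 0.71 ± 0.19 (adjusted p = 0.00574) and 0.57 ± 0.20 (adjusted p = 0.0322). HTB2 (H2B) stood at 82 and 162 TPM at T0 and, in mock, 69.6 and 78.4 TPM at 6 h, 73.5 and 113 at 12 h and then 81.3 and 157 at 24 h. In mock HTB2 stood at 153 and 103 TPM at 2 d, 126 and 145 at 3 d, 176 and 184 at 4 d and then 176 and 187 at 5 d. Under NPA HTB2 stood at 51.6 and 59.8 TPM at 6 h, 81.8 and 53.1 at 12 h, 108 and 63.2 at 24 h, 109 and 54.4 at 2 d, 93.5 and 117 at 3 d, 160.5 and 183 at 4 d and then 163 and 131 at 5 d. HTB2 overlapped between the media except at 6 h, 3 d and 5 d, where both NPA libraries were lower. HTB2 rose at 5 d by 1.29 ± 0.38 (adjusted p = 0.0118) in mock and 1.38 ± 0.38 (adjusted p = 0.00818) under NPA, the second highest NPA difference of the members. Calls lost without 1 library at 5 d were in mock HTB11, HTB1 and HTB2 without mock 6 h replicate 1 (0.34 to 1.2) and without mock 5 d replicate 2 (0.32 to 1.25). Under NPA the call lost was HTB2 without NPA 6 h replicate 1 (1.27) and without NPA 5 d replicate 1 (1.22). HTB9 (H2B) stood at 78.9 and 176 TPM at T0 and, in mock, 97 and 133 TPM at 6 h, 82.4 and 136 at 12 h and then 122 and 172 at 24 h. In mock HTB9 stood at 175 and 109.8 TPM at 2 d, 122 and 120.1 at 3 d, 159 and 144 at 4 d and then 134 and 152 at 5 d. Under NPA HTB9 stood at 105 and 103 TPM at 6 h, 134 and 82.2 at 12 h, 131 and 124 at 24 h, 119 and 96.7 at 2 d, 104 and 118 at 3 d, 126 and 143 at 4 d and then 114 and 111 at 5 d. Both NPA libraries of HTB9 lay below both mock libraries at 3 d, 4 d and 5 d and overlapped them at the other times. HTB4 ranged from 156 to 221 TPM in mock and from 128 to 203 TPM under NPA.

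Against T0 the results depended on which T0 library was used. In mock 1 member was higher and 5 lower at 6 h (background 26.5% higher and 6.22% lower), and 0 and 2 at 12 h (background 17.0% and 7.53%). From 24 h to 5 d 15, 12, 19, 16 and 21 were higher and 0 lower, against 32.5, 33.4, 39.9, 39.8 and 42.4% of all genes higher and 8.98, 8.94, 9.35, 8.74 and 10.9% lower, so the members' shares of higher calls lay below the background. Leaving out T0 replicate 1 lowered the members' median difference at each time, and leaving out T0 replicate 2 raised it (values below). Called in the same direction either way were 2, 0, 2, 0, 4, 2 and 5 members, against 16.5, 13.6, 21.2, 22.8, 28.3, 30.1 and 35.1% of all genes. The members' median was -0.30, -0.15, 0.41, 0.40, 0.46, 0.44 and 0.48 over these times against 0.21, 0.07, 0.26, 0.26, 0.34, 0.34 and 0.37 over all genes. Without T0 replicate 1 the members' median was -0.69, -0.56, -0.04, -0.06, -0.04, 0.05 and 0.11, against 0.12, -0.02, 0.15, 0.16, 0.23, 0.23 and 0.25 over all genes. Without T0 replicate 2 it was 0.10, 0.27, 0.88, 0.81, 0.99, 0.91 and 0.89, against 0.32, 0.17, 0.37, 0.37, 0.45, 0.47 and 0.49.

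The deposited scale also mattered here, since the all-gene median moved to between -0.07 and 0.07 when TMM factors or quantiles were used. With TMM factors the members called higher and lower were 1 and 22 at 6 h, 1 and 5 at 12 h, 12 and 3 at 24 h, 7 and 3 at 2 d, 9 and 6 at 3 d, 8 and 1 at 4 d and 10 and 1 at 5 d. With quantiles they were 1 and 22, 0 and 6, 9 and 2, 4 and 2, 5 and 5, 4 and 5 and 5 and 4. The shares of all genes called at these scalings are not given, so the counts have no background here. Fitted to the compared libraries alone, 0 members were called at any of the 7 times.

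Single members against T0 were as follows. CYCD4;1 was the highest member at each of the 7 times, at 1.33, 0.95, 1.46, 1.47, 1.71, 1.55 and 1.59, and was called at all but 12 h. Its calls at 6 h, 24 h and 2 d were lost without T0 replicate 1, where it stood at 0.43 TPM (0.44, 0.56 and 0.57), and those at 3 d, 4 d and 5 d held. The next highest were CYCD3;1 at 6 h (0.27, and -0.15 without T0 replicate 1) and at 5 d (1.15 ± 0.26 (adjusted p = 0.0013)). MCM6 followed at 12 h (0.25, and -0.12 without T0 replicate 1). ORC6 followed at 24 h and 2 d (1.04 and 0.91). MCM3 followed at 3 d (1.14 ± 0.22 (adjusted p = 4.49e-04)) and AT1G07820 at 4 d (1.08). Calls lost without 1 library were for ORC6 at 24 h without T0 replicate 1 (0.52) and without mock 24 h replicate 2 (0.85). For ORC6 at 2 d they were without T0 replicate 1 (0.39), without mock 2 d replicate 1 (0.91) and without mock 2 d replicate 2 (0.91). The ORC6 call at 2 d was also lost with quantiles (0.50). The 4 d call of AT1G07820 did not hold without T0 replicate 1 (0.31), without mock 4 d replicate 1 (1.08) and without mock 4 d replicate 2 (1.08). The 5 members that fell by 6 h were TSO2, CYCA3;2 (-1.14), CYCA3;1 (-0.74), HTA1 (-0.66) and ETG1 (-0.66), and TSO2 (-0.84) and E2FA (-0.44) fell by 12 h. Of these calls the following were lost without 1 library: at 6 h CYCA3;2, CYCA3;1 and ETG1 without T0 replicate 2 (-0.61 to -0.17) and without mock 6 h replicate 2 (-0.82 to -0.51); CYCA3;1 and HTA1 without mock 6 h replicate 1 (-0.81 and -0.32). At 12 h they were TSO2 and E2FA without T0 replicate 2 (-0.75 and -0.30) and without mock 12 h replicate 1 (-0.61 and -0.40). With no filter CYCA3;2 (-1.14) and CYCA3;1 (-0.74) were not called at 6 h, nor was CYCA3;1 with a pseudocount of 5 (-0.39). The lowest members were CYCA3;2 beside TSO2 at 12 h (-0.71). AT5G59970 and TSO2 were lowest at 24 h (-0.52 and -0.46), AT5G59970 and HTA10 at 2 d (-0.45 and -0.38) and at 3 d (-0.43 and -0.45). RBR1 (-0.21 at 4 d) and CDC45 were lowest at 4 d and 5 d, and none of the differences from 24 h on was called.

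NPA, which blocks polar auxin transport, went with lower levels of nearly all members at nearly all times. The mock libraries serve in both these and the preceding comparisons. The NPA minus mock difference was below 0 for all 52 members tested at 6 h, 12 h, 24 h, 2 d and 3 d, for 49 at 4 d and for 51 at 5 d. Its median was -0.29, -0.29, -0.34, -0.48, -0.35, -0.28 and -0.51 from 6 h to 5 d, against -0.02, -0.05, -0.08, -0.06, -0.12, -0.12 and -0.11 over all genes. Few single differences passed the test at 1 time. From 6 h to 5 d 0, 0, 0, 0, 1, 4 and 12 members were called lower and 0 higher. The background was 0.683, 1.23, 1.47, 3.27, 5.14, 9.30 and 15.1% lower and 0.881, 0.852, 0.421, 0.421, 0.600, 0.605 and 2.04% higher. These counts use a spread shared by all 15 groups. Fitted to the compared libraries alone, more members were called at 3 d and 4 d and fewer at 5 d (counts in the closing section). At the 4 times with none called in limma, 5, 6, 7 and 18 members had an unadjusted p under 0.05. The share of all genes under that limit is not given, so these counts have no background. With the clock term, added after seeing the data, 3, 5, 5 and 23 were called, without a share of all genes to set beside them. The share of higher calls among all genes was 56.3, 40.8, 22.3, 11.4, 10.5, 6.11 and 11.9% from 6 h to 5 d, 59.3, 52.2, 34.8, 17.1, 22.8, 17.4 and 34.3% with TMM factors and 60.3, 53.5, 36, 17.5, 25.3, 25.6 and 37.5% with quantiles, and no member was called higher with either. Both NPA libraries lay below both mock libraries for 34, 23, 24, 33, 50, 46 and 49 of 52 members from 6 h to 5 d, against 16.0, 26.6, 30.8, 31.5, 49.6, 49.2 and 44.0% of all genes.

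Averaged over the 7 times the lowering was seen across the classes. Of 52 members 44 were lower and 0 higher (background 30.6% lower and 6.60% higher), 25 of 28 replication and G1/S genes and 19 of 24 histone genes, with a median of -0.37 against -0.08 over all genes. They comprised 6 of 6 MCM, 4 of 5 origin licensing, 7 of 7 replisome, 2 of 2 deoxynucleotide, 2 of 2 CAF-1 and 4 of 6 G1/S genes. Of the histone genes they comprised 5 of 5 H3, 6 of 8 H4, 2 of 4 H2A, 2 of 2 H2A.X and 4 of 5 H2B genes. The count was 32 with TMM factors and 37 with quantiles, with 0 higher in both, while the share of higher calls among all genes went from 17.8% to 45.6% and 48.3%. Over 3 d, 4 d and 5 d alone, chosen after seeing the data because TOC1 differed least within pairs there, 22 were lower (background 26.3% lower and 3.96% higher), with 15 of 28 and 7 of 24, and all 6 MCM genes. Leaf photosynthesis genes, which take up a large share of each library, summed to 43673 and 44580 TPM in mock and 58782 and 54210 TPM under NPA at 3 d, and to 29072 and 29691 against 35926 and 35590 at 5 d. Their part in the result was not tested.

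**Figure D5:**
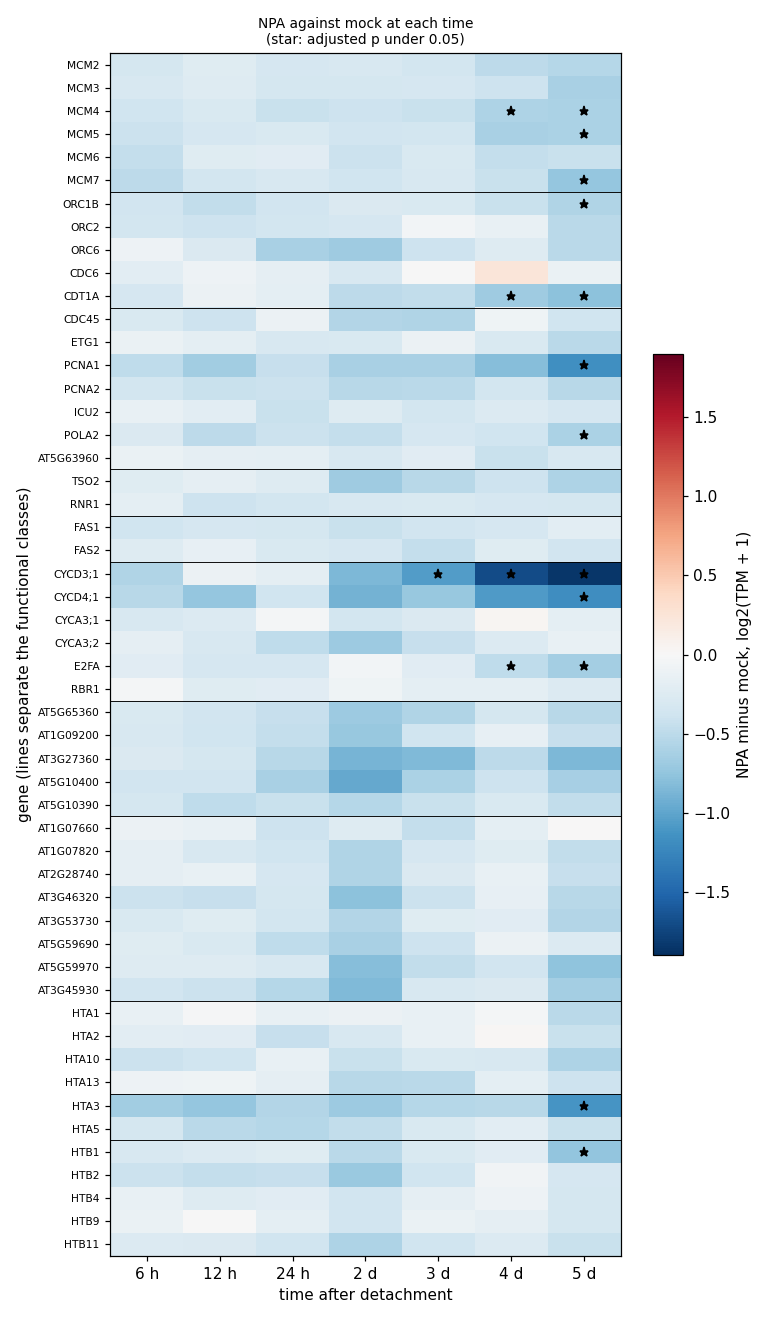
NPA minus mock difference on the log2(TPM + 1) scale (colour) for the 52 members tested (y axis, lines between classes) at 7 times (x axis), with stars at an adjusted p under 0.05 in limma. Blue, for lower under NPA, fills nearly the whole plot, and of 17 stars 12 are at 5 d and 3 are in the CYCD3;1 line.

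The lowest mean differences were those of the D-type cyclins. Averaged over the 7 times CYCD3;1 differed from mock by -0.90 ± 0.10 (adjusted p = 1.25e-06) and CYCD4;1 by -0.79 ± 0.13 (adjusted p = 1.58e-04). HTA3 followed at -0.69 ± 0.08 (adjusted p = 5.30e-06) and PCNA1 at -0.68 ± 0.10 (adjusted p = 5.79e-05). MCM2, MCM5 and MCM7 differed by -0.37 ± 0.08, -0.42 ± 0.07 and -0.43 ± 0.09. ORC1B and CDT1A differed by -0.40 ± 0.06 and -0.43 ± 0.07, and the H3 genes AT5G65360 and AT3G27360 by -0.46 ± 0.12 and -0.60 ± 0.14. These 11 calls held without any 1 of the 28 cultured libraries. RBR1 differed by -0.17 ± 0.04, a call lost with TMM factors (-0.06) and with quantiles (-0.07). HTA1 and CDC6 had the differences nearest to 0.

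At single times CYCD3;1 was called first in the fit of all libraries. Its difference was -1.06 ± 0.26 (adjusted p = 0.0195) at 3 d, -1.70 ± 0.26 (adjusted p = 1.59e-04) at 4 d and -1.84 ± 0.26 (adjusted p = 4.91e-05) at 5 d, where mock libraries stood at 19.4 and 25.4 TPM and NPA libraries at 4.63 and 6.45. The 4 d and 5 d calls held without any 1 library, and the 3 d call did not (-1.17 to -0.94). At 4 d MCM4 (-0.59 ± 0.15), CDT1A (-0.67 ± 0.19) and E2FA (-0.48 ± 0.11) were also called lower. Among the 12 called lower at 5 d were CYCD3;1, CYCD4;1 (-1.18 ± 0.35), PCNA1 (-1.16 ± 0.28), HTA3 (-1.12 ± 0.22), CDT1A (-0.78 ± 0.19) and HTB1 (-0.75 ± 0.20). The rest were MCM7 (-0.73 ± 0.23), E2FA (-0.65 ± 0.11), MCM5 (-0.60 ± 0.20), POLA2 (-0.60 ± 0.19), MCM4 (-0.60 ± 0.15) and ORC1B (-0.58 ± 0.17). Adjusted p-values of these 11 at 5 d ran from 4.91e-04 (E2FA) to 0.0418 (MCM5), and only E2FA of the 11 held without any 1 library. Leaving out 1 library left 7 calls without mock 5 d replicate 1 or NPA 5 d replicate 1, 2 without mock 5 d replicate 2 and 3 without NPA 5 d replicate 2. At 4 d it left 1 call without mock 4 d replicate 1 or NPA 4 d replicate 2 and 2 without NPA 4 d replicate 1. The shares of all genes called in those fits are not given. The calls of MCM4, CDT1A and E2FA at 4 d were each lost without 1 library or more. With quantiles ORC1B (-0.19) and POLA2 (-0.38) at 5 d, and CDT1A (-0.41) and E2FA (-0.15) at 4 d, were not called. POLA2 was also not called with TMM factors (-0.46), with a pseudocount of 0.1 (-0.68) or with a mean TPM of at least 5 (-0.60). The last setting also ended the calls of MCM5 at 5 d (-0.60) and CDT1A at 4 d (-0.67), and a pseudocount of 0.1 that of CYCD4;1 at 5 d (-1.43).

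Other members at the ends of the range were not called. The lowest were HTA3 and CYCD3;1 at 6 h (-0.66 and -0.57), CYCD4;1 and HTA3 at 12 h (-0.74 and -0.73). At 24 h they were ORC6 and AT5G10400 (-0.62 and -0.62), and at 2 d AT5G10400 and CYCD4;1 (-0.97 and -0.89). AT3G27360 was among the 2 lowest at 3 d (-0.85) and CYCD4;1 at 4 d (-1.08). The highest was CDC6 at 4 d (0.23). The other ends nearest to 0, or above it, were held by ORC6 and RBR1 at 6 h, HTA1 and HTB9 at 12 h, CDC45 and CYCA3;1 at 24 h. They were RBR1 and E2FA at 2 d, ORC2 and CDC6 at 3 d, CYCA3;1 at 4 d, and CDC6 and AT1G07660 at 5 d. In the class of deoxynucleotide supply TSO2 differed by -0.59 ± 0.27 (adjusted p = 0.147) at 5 d. In the histone classes AT5G65360 differed by -0.52 ± 0.32 (adjusted p = 0.312), HTA10 by -0.59 ± 0.24 (adjusted p = 0.0962) and HTB11 by -0.42 ± 0.19 (adjusted p = 0.146).

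Whether the media differed in how members changed over time is a separate test. In that limma test 2 members had an unadjusted p under 0.05, without a share of all genes to set beside them. The change from 6 h to 5 d under NPA minus that in mock was called for 1 of 52 members, lower, and 0 higher (background 6.42% lower and 0.324% higher). That member was CYCD3;1, at -1.27 ± 0.37 (adjusted p = 0.0454), followed by PCNA1 at -0.68 ± 0.39 (adjusted p = 0.476). The CYCD3;1 call was lost without 5 of the 8 libraries, without mock 6 h replicate 1 (-1.03), without mock 5 d replicate 2 (-1.09), without NPA 6 h replicate 1 (-1.11), without NPA 6 h replicate 2 (-1.44) and without NPA 5 d replicate 1 (-1.07). It was also lost with a pseudocount of 0.1 (-1.38) and with no filter or a mean TPM of at least 5 (both -1.27). A moderated F test of whether the difference varied between the 7 times called 1 of 52 members, again CYCD3;1 (adjusted p = 0.0164, background 5.86% in either direction). The members' median change differed by -0.21 against -0.10 over all genes.

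Genes of the same pathway outside the 53 were counted the same way. Of 32 other replication genes, 11, 8 and 11 rose in mock at 24 h, 2 d and 5 d against 6 h and 0, 0 and 1 fell, the last being LIG1 (-0.65 ± 0.24), a DNA ligase. That call was lost without any 1 of the 4 libraries (-0.72 to -0.58) and with the clock term (-0.43). Of all genes 10.0, 12.8 and 25.5% rose at these times. Under NPA at 5 d 7 rose and 2 fell, against 19.0% and 19.1% of all genes. With NPA 21 of 32 were lower in the mean over times (all genes 30.6%). At 5 d 4 were lower, CDT1B, AT2G24490 (-0.88 ± 0.18), POLD2 (-0.49 ± 0.14) and MSI1 (-0.44 ± 0.12), a share below the 15.1% of all genes. The POLD2 call was lost without any 1 of the 4 libraries (-0.53 to -0.45) and with quantiles (-0.28). The MSI1 call was lost without mock 5 d replicate 1 (-0.44), without mock 5 d replicate 2 (-0.43) and without NPA 5 d replicate 2 (-0.35), and with TMM factors (-0.28). In the change from 6 h to 5 d 1 was lower (all genes 6.42%). CDT1B, the paralog of CDT1A, was lowest with -1.79 ± 0.18 at 5 d and -1.51 ± 0.25 in the change over time. Of 19 other G1/S regulators 6 rose and 3 fell in mock at 5 d, and 2 were higher and 11 lower with NPA in the mean. For these and the histone genes that follow, the shares of all genes were 25.5% risen and 13.3% fallen in mock at 5 d. With NPA they were 6.60% higher and 30.6% lower in the mean, and 15.1% lower at 5 d. Of 12 histone variants and linker histones 8 rose in mock at 5 d, and with NPA 3 were lower in the mean and 1, HTA11 of the H2A.Z type, at 5 d (-1.04 ± 0.32). The HTA11 call was lost without any 1 of the 4 libraries (-1.15 to -0.93).

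Genes of the later G2 and M phases, which are not among the 53, were counted beside them. This list was also chosen with earlier results of these data known. All 10 of that reference list rose in mock at 2 d and 5 d against 6 h (medians 1.17 and 1.75), and 0 of 10 were called under NPA at 2 d or 5 d in limma (medians 0.07 and 0.02), with 0 and 0 at an unadjusted p under 0.05. Of all genes 12.8% and 25.5% rose in mock at these times, and 10.8% and 19.0% rose under NPA while 13.5% and 19.1% fell. With NPA 10 of 10 were lower at 3 d, 4 d and 5 d, with medians of -1.49, -1.73 and -1.84. In the change from 6 h to 5 d 10 of 10 were lower (median -1.69), where 1 of the 52 members was called (median -0.21). The shares of all genes called lower were 5.14, 9.30 and 15.1% at the 3 times and 6.42% in the change. The 10 G2/M genes summed to 30.5 and 72.8 TPM at T0 and, in mock, 34.5 and 44.9 TPM at 6 h, 37.7 and 58.2 at 12 h and then 65.3 and 82 at 24 h. In mock the sum was 112 and 101 TPM at 2 d, 132 and 131 at 3 d, 136 and 132 at 4 d and then 138 and 171 at 5 d. Under NPA the sum was 40.1 and 32.5 TPM at 6 h, 74.3 and 49.7 at 12 h, 75.8 and 54.7 at 24 h, 40.6 and 38.8 at 2 d, 41.4 and 40.0 at 3 d, 31.6 and 38.9 at 4 d and then 36.8 and 35.4 at 5 d. Their mock and NPA sums overlapped at 6 h, 12 h and 24 h, and from 2 d on both NPA sums were below both mock sums of the same time. Over the same days the MCM genes under NPA stayed above their 6 h level, with sums of 42.8 and 40.9 TPM at 5 d against 18.8 and 26.6 TPM at 6 h.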

How the data were processed

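RNA of 30 libraries was sequenced by the submitters. The tools named in the submitters' processing notes are RSEM 1.3.2, STAR 2.7.2b and Trim Galore 0.5.0, and the build named there is TAIR10. The authors deposited TPM per gene in 2 tables, one per medium, whose T0 columns are identical; each library sums to the same total, so depth is unknown and no counting interval is given. Between 17201 and 19288 genes reached 1 TPM in a library. TPM is a share of the library, so a change in very abundant genes moves all others.

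Values were taken as log2(TPM + 1). The filter asked for 1 TPM in 2 or more libraries and passed 20654 genes and 52 of the 53 members. One limma 3.58.1 model (R 4.3.3) held all 15 groups, with trend, 15 residual degrees of freedom and Benjamini-Hochberg adjustment within each comparison. TMM factors (trimmed means of log ratios between libraries) were computed from the TPM values. The procedure was also run on simulated data with independent noise in each gene and library. Such data lack deviations shared by many genes, like the clock differences within pairs, so that run cannot speak to them.

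The members and lists were chosen with earlier results of these data known. Values in every library are given for the 22 replication and G1/S genes listed for this, the MCM genes, the histone gene of highest and of lowest mean level in each class, and the 2 highest and 2 lowest members of each comparison. A difference under 0.2 (log2) that was not called may be named without its value. Sequences were read from the RefSeq TAIR10.1 genome and annotation. Alternatives were other pseudocounts, filters, scalings and models, each library left out, and, chosen after seeing the data, a clock term and the later times alone.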

Additional observations from a re-analysis of the deposited data

Results flagged for a closer look

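The change from 6 h to 5 d differed between media for 1 of 52 members, by the interaction test. Of all genes 6.42% were called lower and 0.324% higher in that test. The member was CYCD3;1, with a difference of -1.27 (log2) between NPA and mock (adjusted p = 0.0454 in limma). Its call was lost without some single libraries, with a pseudocount of 0.1 and with other filters, as given above. The NPA minus mock difference varied between the 7 times for 1 of 52 members in the moderated F test, against 5.86% of all genes. It was again CYCD3;1 (adjusted p = 0.0164).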

How the results depend on the processing

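Counts of members called against T0 from 6 h to 5 d were 6, 2, 15, 12, 19, 16 and 21. They were 23, 6, 15, 10, 15, 9 and 11 with TMM factors, 23, 6, 11, 6, 10, 9 and 9 with quantiles, 0, 0, 0, 0, 0, 0 and 0 with the compared libraries alone, 37, 4, 18, 14, 22, 26 and 30 with the clock term and 2, 0, 2, 0, 4, 2 and 5 for calls made the same way without either T0 library; with a mean TPM of at least 5 the 12 h count was 1. NPA against mock, from 6 h to 5 d, gave 0, 0, 0, 0, 1, 4 and 12, and 3, 5, 5, 23, 11, 15 and 35 with the clock term. The last 3 were 15, 13 and 2 with the compared libraries alone, and 1, 2 and 7 with a mean TPM of at least 5; with quantiles the 4 d count was 2. Against 6 h, mock at 24 h and 2 d and NPA at 2 d and 5 d gave 24, 20, 14 and 22, 0, 0, 0 and 12 with the compared libraries alone and 40, 38, 30 and 40 with the clock term. The change from 6 h to 5 d gave 1, 2 with the clock term, and 0 with a pseudocount of 0.1, with no filter, with a mean TPM of at least 5 or with the compared libraries alone. The mean over times gave 44, and 22 over 3 d, 4 d and 5 d alone. Shares of all genes called with the clock term or other scalings are not given, so those counts have no background. The same holds for the compared libraries alone and for the fits below that leave out 1 library. The clock term and the later times were chosen after seeing the data. Fitting the compared libraries alone leaves fewer degrees of freedom and takes the spread from those libraries, and some counts rose while others fell. The cause of these shifts was not tested.

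Leaving out 1 library gave ranges of 3 to 25, 0 to 13, 3 to 31, 0 to 30, 5 to 34, 3 to 39 and 5 to 40 against T0, 0 to 0, 0 to 0, 0 to 0, 0 to 1, 0 to 0, 1 to 3 and 2 to 7 for NPA against mock, 8 to 21, 9 to 16 and 15 to 24 for mock at 24 h, 2 d and 5 d against 6 h, 5 to 16 and 6 to 22 for NPA at 2 d and 5 d, 0 to 1 for the change over time, 37 to 47 for the mean and 0 to 1 for the F test. For single members the sign changed for CYCD3;1 at 6 h against T0, to -0.0083 with quantiles and from -0.15 to 0.69 without one T0 library, and for MCM6 at 12 h, from -0.12 to 0.61 without one T0 library.

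Deviations of same-numbered mock and NPA libraries correlated at -0.57, -0.58, -0.36, 0.33, 0.05, -0.14 and -0.14 from 6 h to 5 d. At 6 h, 12 h and 24 h the library with more TOC1 had opposite replicate numbers in the media. At 12 h TOC1 was 6.19 and 24.7 TPM in mock and 35.6 and 4.53 TPM under NPA. A block by replicate number thus does not match libraries by clock phase at those times, and a crosswise pairing was not fitted. With a replicate block the counts were 5, 2, 14, 11, 18, 15 and 19 against T0, 0, 0, 0, 0, 1, 4 and 11 for NPA against mock, 20, 18, 34, 14 and 19 against 6 h, 1 for the change over time, 43 for the mean and 1 for the F test. The named calls lost with the block were AT5G65360 and RNR1 at 24 h in mock and CDC6 at 5 d under NPA, all against 6 h, MCM5 at 5 d with NPA and CYCA3;1 at 6 h against T0. With 2 libraries a group and depth unknown, low genes such as ORC1A could not be compared.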
